A study of Mus musculus with 16 samples.

Results

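The genes of mitochondrial complex I were followed in the left ventricle of mice over the week after abdominal surgery. A gene was taken when its row was protein-coding, its symbol began with Nduf and its mean over all 16 libraries was 0.5 TPM or more (TPM is the share of transcripts in a library, scaled by gene length). This gave 47 genes of the 57143 in the table. They comprise 37 subunits, 8 assembly factors (the genes named Ndufaf) and the pair Ndufa4 and Ndufa4l2, which carry the name but are not counted here as complex I subunits. Of 48 protein-coding Nduf rows, 1 stayed outside: Ndufb11b, with 0 counts in every library. The member closest to the limit was Ndufb2, at a mean of 5.74 TPM. All mice were male C57BL/6, anesthetized with sevoflurane and operated on in the abdomen, and the myocardium was taken at 0h, 3h, 24h or 7d, with 4 libraries per time. The 0h group carries the surgery label too, so no unoperated group was compared. Ages are not stated in the labels used here, nor whether the 4 libraries of a time came from separate animals. The p-values therefore weigh differences between times against the spread between libraries, which may not be the spread between mice.

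Complex I is the entry point of the mitochondrial respiratory chain. It takes electrons from NADH, passes them through flavin and a chain of iron-sulfur clusters to ubiquinone, and pumps protons across the inner membrane. The arm in the matrix holds the N module, which oxidizes NADH, and the Q module, which reduces ubiquinone, while the membrane arm holds the pumps. A catalytic core shared with bacteria is surrounded by supernumerary subunits, and assembly factors join the modules without staying in the finished enzyme. The core subunits of the membrane arm are encoded by mitochondrial DNA, and they were not analysed here. Heart muscle, which draws most of its energy from respiration, is among the tissues richest in this complex.

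The bases upstream of the start site are shown for 4 of the genes that the comparisons below turn on, as RefSeq places the start (build GRCm38.p6). Ndufaf4 is the assembly factor whose call between 24h and 7d went in the opposite direction to those of the subunits. Ndufa5 and Ndufa12 had the smallest p-values among the subunits at 24h, and Ndufc1 was the subunit called at 3h. Each line gives the 250 bases before the start, read 5′ to 3′ along the gene's own strand. They come from chr4:24897833-24898082 (plus strand) for Ndufaf4 and chr6:24527691-24527940 (minus strand) for Ndufa5, the more upstream of its pair of starts. Those of Ndufa12 come from chr10:94198785-94199034 (plus strand) and those of Ndufc1 from chr3:51408956-51409205 (minus strand). Capitals mark a match to the NRF1 motif, which in Ndufaf4 reads the same on both strands.
Ndufaf4: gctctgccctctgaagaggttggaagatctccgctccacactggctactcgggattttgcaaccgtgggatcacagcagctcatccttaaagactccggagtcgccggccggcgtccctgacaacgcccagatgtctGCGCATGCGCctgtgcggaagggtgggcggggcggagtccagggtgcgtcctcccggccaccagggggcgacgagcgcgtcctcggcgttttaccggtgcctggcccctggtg
Ndufa5: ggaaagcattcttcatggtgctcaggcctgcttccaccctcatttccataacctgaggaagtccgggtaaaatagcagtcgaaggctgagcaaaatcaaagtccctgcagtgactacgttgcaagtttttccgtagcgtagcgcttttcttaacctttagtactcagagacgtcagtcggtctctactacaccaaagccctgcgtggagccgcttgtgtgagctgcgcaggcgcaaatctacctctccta
Ndufa12: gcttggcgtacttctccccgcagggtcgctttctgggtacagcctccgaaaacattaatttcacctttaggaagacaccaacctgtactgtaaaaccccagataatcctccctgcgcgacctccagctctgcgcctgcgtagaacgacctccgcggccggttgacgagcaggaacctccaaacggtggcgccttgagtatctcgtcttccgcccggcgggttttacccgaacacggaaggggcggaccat
Ndufc1: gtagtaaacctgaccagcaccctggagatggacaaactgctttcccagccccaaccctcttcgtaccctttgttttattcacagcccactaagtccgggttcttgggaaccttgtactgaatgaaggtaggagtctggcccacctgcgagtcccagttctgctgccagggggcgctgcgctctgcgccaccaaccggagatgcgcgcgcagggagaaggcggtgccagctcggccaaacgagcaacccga
RefSeq windows of 300 bases, with 250 before the start and 50 after it, were found for 41 of the 47 genes (43 windows). Those without one include Ndufa2, Ndufa4l2, Ndufaf6, Ndufb9 and Ndufs1. Both strands were searched for 4 motifs by exact letters. The NRF1 motif GCGCATGCG was in 9.3% of these windows (Ndufa8, Ndufa11, Ndufaf4 and Ndufaf5) and in 1.75% of all 32851 windows. The YY1 motif AAGATGGCG was in 14% (Ndufa9, Ndufaf8, Ndufc1, Ndufs4, Ndufs6 and Ndufs7) against 1.4% of all. In Ndufc1 its match lies within the bases after the start, which the printed line does not reach. The ETS motif CCGGAAG was in 14% (Ndufaf1, Ndufaf8, Ndufb6, Ndufb7, Ndufs3 and Ndufs8) against 8.86%. The motif of the estrogen-related receptors, TGACCTTG, was in 2.33% (Ndufs5 alone) against 1.56%. These are matches of letters, and no binding was measured.

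Levels are given in TPM, which are scaled by the gene length the authors listed. Setting genes side by side therefore rests on those lengths, which may differ from those of the transcripts. Ndufa4, now counted as a subunit of complex IV, was highest at a mean of 3790 TPM over the 16 libraries. Among the subunits, Ndufb11 (2185 TPM) and Ndufa1 (2031 TPM), both of the membrane arm, led. The summed TPM of the 37 subunits ran from 31382 to 41022 per library, and their share of all counts from 1.5% to 2.14%. The 8 assembly factors together came to between 483 and 620 TPM, so every one of them sat well under most subunits. Ndufaf8 was highest of these at 149 TPM and Ndufaf2 lowest at 26.1 TPM. Ndufa4l2, the hypoxia-inducible relative of Ndufa4, averaged 52.3 TPM.

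A pair of subunits stood far below the rest. Ndufb2 was at 5.74 TPM (listed length 5628 bases) and Ndufb8 at 38.8 TPM (3146 bases). Both share their strand with an overlapping protein-coding gene model, Gm42420 and Gm20538, and each of those models was listed with 0 counts. Ndufb9 also has such a partner at 0 counts (Gm49356) and was at 1292 TPM. The part of these overlaps, or of the listed lengths, in the low values was not tested. Processed copies were present at low levels, from 3.73 TPM for Ndufs6b to 45.7 TPM for Ndufs5-ps, with Ndufa11b at 0.0354 TPM. How reads shared by a copy and its parent gene were counted is not given. Counts of Ndufs5, Ndufs6, Ndufa11, Ndufa12, Ndufab1 and Ndufb4 are therefore uncertain to an unknown extent. Genes on the opposite strand overlap several members, among them Eef1b2 with Ndufs1, Impdh2 with Ndufaf3 and Smim15 with Ndufaf2. The strand setting of the counting is not given in the sources used here.

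Depth ran from 8.31 M to 12.9 M counts (M, mega) per library. Markers of cardiomyocytes were high throughout, with a summed level of 62900 to 66600 TPM at 0h, 60300 to 65000 at 3h, 49600 to 61400 at 24h and 53700 to 73100 at 7d for 10 genes. Of these 10 markers, 0 were called higher and 1 lower at 24h against 0h, with a median log2 fold change of 0.05. All 5 neutrophil markers were called higher at 3h and at 24h. Of 5 fibroblast markers, 1 was called higher and 2 lower at 24h (median −0.60), and of 4 hepatocyte markers tested, 2 were called higher at 3h (median 5.03) at a summed level of at most 88.6 TPM in any library. Of 4 atrial markers, 3 were called higher at 24h. One of them, Myl7, the atrial myosin light chain, exceeded 50 TPM in 4 libraries, at 146 TPM in 3h replicate 3 and 63.8, 126 and 159 TPM in 24h replicates 1, 2 and 4. The whole atrial list summed to 453 to 1460 TPM at 0h, 256 to 738 at 3h, 479 to 1000 at 24h and 534 to 2760 at 7d, and none of its genes was at 0 in all libraries. In whole tissue, fewer cells of a type and less RNA per cell cannot be told apart.

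At 24h, 20 of the 37 subunits of complex I were higher than at 0h. The test was edgeR's quasi-likelihood F test on counts scaled by trimmed means (TMM), with Benjamini-Hochberg adjustment over 16866 genes, and genes with an adjusted p under 0.05 are called. It called 21 of the 47 genes (44.7%) higher and 0 lower, where 9.53% of all genes tested were called higher. The 21 are those subunits (54.1% of the 37) and Ndufa4. None of the 8 assembly factors was called. An unadjusted p under 0.05 was seen for 2 of them, Ndufaf3 with a positive and Ndufaf4 with a negative change. Of all 16866 genes tested, 5557 had one. On the TMM scale all 37 subunits had a positive log2 fold change, from 0.19 to 0.68 with a median of 0.40. Mean TPM was lower at 24h than at 0h for Ndufs1 (268 against 273) and Ndufc2 (858 against 862). The median log2 fold change over all genes tested was −0.01. Abundant genes as a group stood high too: among the 1320 genes with a mean of 100 TPM or more, 32.9% were called higher, with a median of 0.26.

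**Figure D1:**
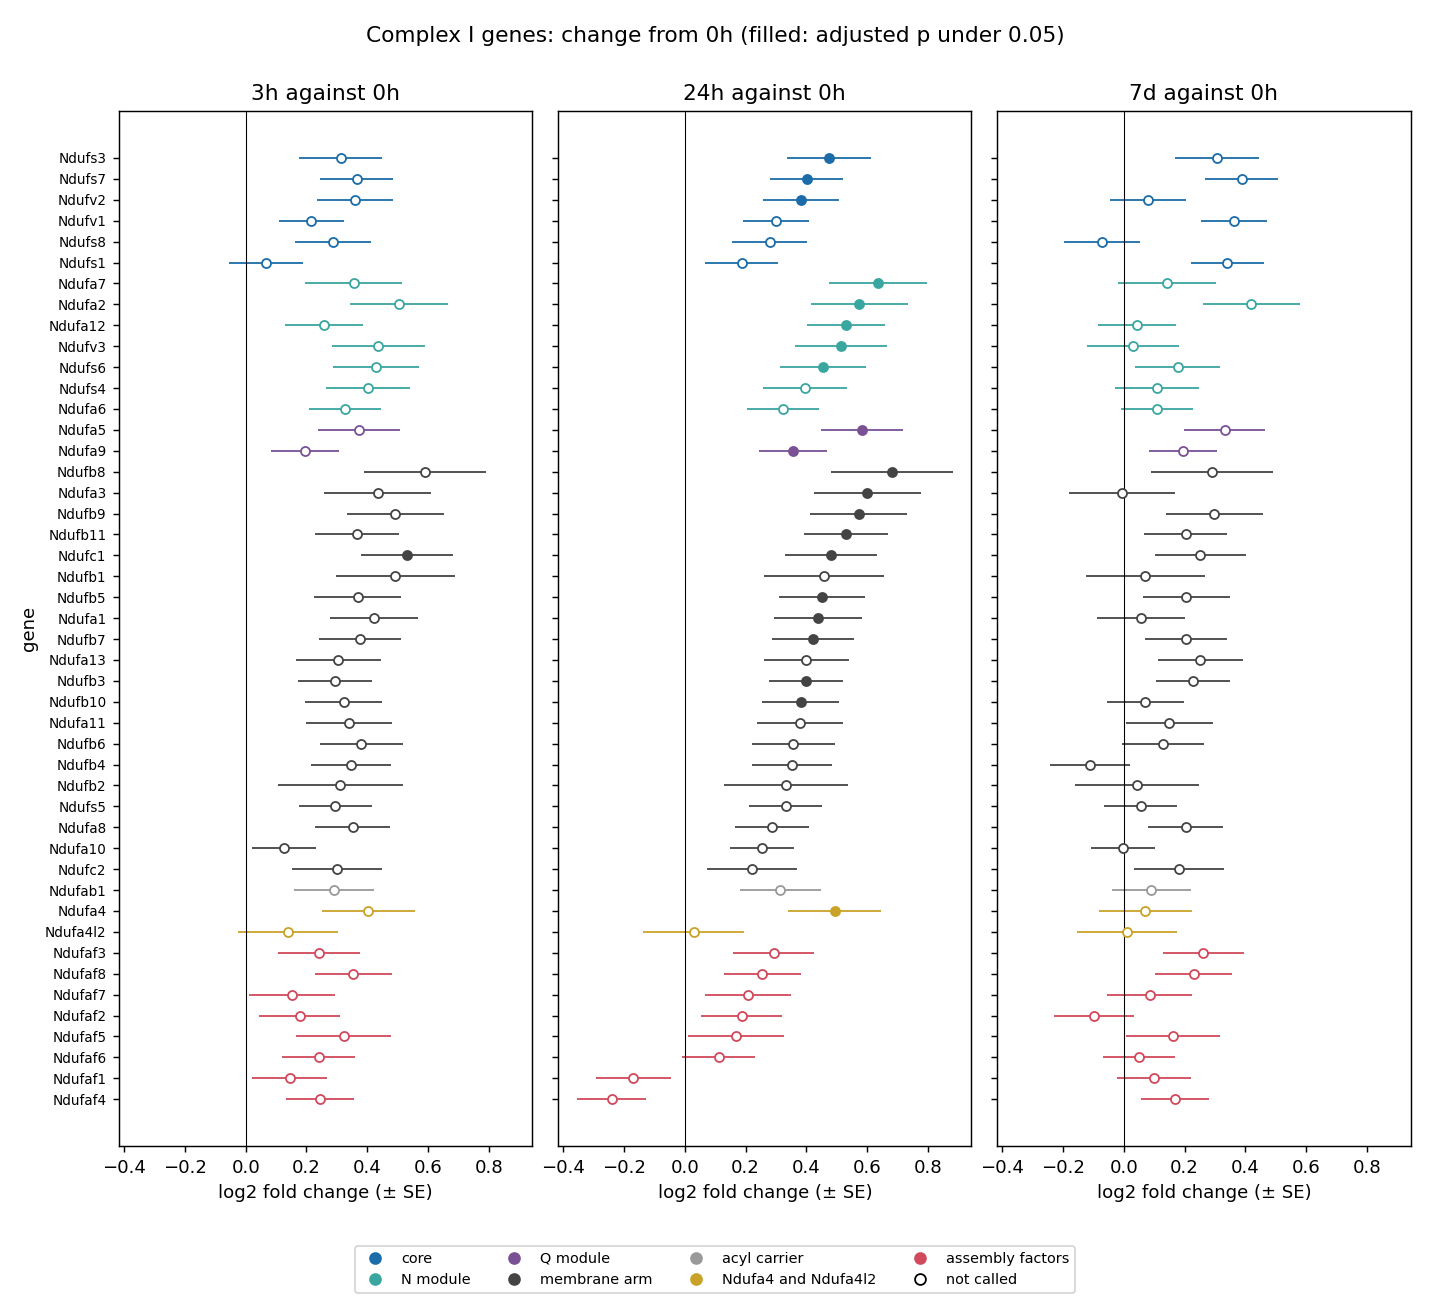
Log2 fold change (x axis, TMM scale, bars ± SE) of each gene reported by name (y axis) at 3h, 24h and 7d against 0h, coloured by the role of the gene; filled points were called. At 24h every subunit drawn lies right of 0 and 20 are filled, at 3h only Ndufc1 is filled, and at 7d none is.

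Of the 7 nuclear core subunits, 3 were called higher at 24h and the median was 0.31. These were Ndufs3, a scaffold of the Q module, with a log2 fold change of 0.475 (SE 0.137, adjusted p = 0.0202), Ndufs7, which carries the last iron-sulfur cluster before ubiquinone (0.40, adjusted p = 0.0247), and Ndufv2, an iron-sulfur subunit next to the flavin site (0.38, adjusted p = 0.0359). Ndufv1 and Ndufs8 were at 0.30 and 0.28 and were not called. Ndufs1, the longest of the 47 genes by listed length and the carrier of several clusters, had the smallest value of any subunit. Its TPM was 299, 266, 277 and 250 at 0h and 257, 230, 357 and 230 at 24h. The groups overlapped, with 24h replicate 3 above every 0h library and replicates 2 and 4 of 24h below all of them. The fitted change was 0.19 (SE 0.121, adjusted p = 0.298).

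The supernumerary N module, which sits around the NADH site, had 5 of its 7 genes called and a median of 0.51. Ndufa12, a subunit that joins the N module late in assembly, stood at 695, 781, 776 and 857 TPM at 0h and at 859, 1049, 907 and 1053 TPM at 24h. No 24h library fell under the highest 0h library, though the closest pair nearly touched. Its log2 fold change was 0.53 (SE 0.128, adjusted p = 0.00689). Ndufa7 stood at 469, 557, 463 and 574 TPM at 0h and at 798, 674, 531 and 731 TPM at 24h. Only 24h replicate 3 lay within the 0h range. The change was 0.64 (SE 0.161, adjusted p = 0.00987), the largest of the module. Ndufa2, Ndufv3 and Ndufs6 were called as well, and Ndufs4 (0.40, adjusted p = 0.0509) and Ndufa6 (0.32, adjusted p = 0.0604) missed the threshold.

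Both supernumerary genes of the Q module were called. Ndufa5 had the smallest p of all 47. It was at 1238, 1347, 1306 and 1408 TPM at 0h and at 1922, 1528, 1601 and 1734 TPM at 24h. Every 24h library lay above every 0h library. Its mean went from 1325 ± 71.2 to 1696 ± 173 TPM (SD, n = 4), and its log2 fold change was 0.58 (SE 0.134, adjusted p = 0.0051 by edgeR). Ndufa9, a subunit near the ubiquinone site that binds a nucleotide cofactor, was at 0.36 (adjusted p = 0.0319).

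In the membrane arm 10 of 20 supernumerary genes were called, with a median of 0.40. Ndufb11, the most abundant subunit, was at 1784, 2077, 1865 and 2131 TPM at 0h and at 2764, 2181, 2269 and 2489 TPM at 24h. The ranges did not overlap. Its change was 0.53 (SE 0.138, adjusted p = 0.0112). Ndufb8 had the largest log2 fold change of any subunit at a low level: 33.1, 34.1, 30.7 and 30.9 TPM at 0h against 56.7, 34.4, 32.2 and 50.5 TPM at 24h. Replicates 1 and 4 of 24h were far above the 0h libraries, while replicates 2 and 3 were close to them. The fitted value was 0.68 (SE 0.201, adjusted p = 0.0268). Ndufb9, Ndufa3, Ndufb3, Ndufc1, Ndufb5, Ndufb7, Ndufa1 and Ndufb10 were the other called genes of this arm, with values between 0.38 and 0.60. Ndufa8, Ndufa10, Ndufa11, Ndufa13, Ndufb1, Ndufb2, Ndufb4, Ndufb6, Ndufc2 and Ndufs5 were not called and ran from 0.22 to 0.46. Ndufab1, the mitochondrial acyl carrier protein that is also a subunit, was at 0.31 (SE 0.132, adjusted p = 0.0964).

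Of the pair outside the complex, Ndufa4 was called at 24h. It was at 3149, 3744, 3358 and 3698 TPM at 0h and at 4374, 3932, 3647 and 4795 TPM at 24h. Replicate 3 of 24h lay inside the 0h range and the other three lay above it. The log2 fold change was 0.49 (SE 0.154, adjusted p = 0.0307). Ndufa4l2 was at 75.2, 52.3, 47.5 and 45 TPM at 0h and at 46.8, 56.3, 51.2 and 40.5 TPM at 24h, with wide overlap. Its change was 0.03 (SE 0.166, adjusted p = 0.925).

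The 24h count rested on a few libraries. Leaving out 24h replicate 1 left 3 genes called higher, 24h replicate 4 left 4, 0h replicate 1 left 4, and 0h replicate 3 left 7. Leaving out 24h replicate 3 gave 34. The share of all genes tested called higher in these fits was, in that order, 5.16%, 5.49%, 5.66%, 6.51% and 13.3%. Ndufa5, Ndufa12 and Ndufa7 were called in each of the 16 single-library omissions, with a largest adjusted p of 0.0271, 0.0354 and 0.0455. With Myl7 as a covariate, or without the 4 libraries over 50 TPM of Myl7 (which leaves 1 library at 24h), 0 of the 47 genes were called at 24h. Of all genes tested, 0.314% were then called higher with the covariate and 0.54% without those libraries. The subunit median was 0.42 with the covariate and 0.13 without those libraries. On log2(TPM + 1) with limma, 4 genes were called higher and 2 lower, the assembly factors Ndufaf1 and Ndufaf4. That scale sits lower as a whole: the median over all genes of its difference from 0h was −0.15 at 3h, −0.192 at 24h and −0.08 at 7d. Ratios of TPM to 0h therefore tend to lie below the TMM folds, with rises smaller and falls larger. The subunit median on the log2(TPM + 1) scale was 0.17 at 24h, 0.36 above the median of all genes. Of all genes called at 24h, 52.5% were higher by edgeR with TMM, 30.6% without TMM and 18.1% on log2(TPM + 1).

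At 3h the same direction was seen, and 1 gene passed the test. On the TMM scale all 47 genes had a positive log2 fold change against 0h, with medians of 0.35 for the subunits and 0.24 for the assembly factors. Of the 47, 32 had an unadjusted p under 0.05 by edgeR, as did 3824 of all 16866 genes tested. The sign depended on the scaling for some genes. Mean TPM was lower at 3h than at 0h for Ndufs1 (252 against 273) and Ndufa10 (577 against 600). It was also lower for Ndufaf1, Ndufaf2, Ndufaf7 and Ndufa4l2. The subunit median on log2(TPM + 1) was 0.17. Genes with a mean of 100 TPM or more had a median of 0.20. The called gene was Ndufc1, a small membrane arm subunit, that is 2.13% of the 47 where 2.01% of all genes tested were called higher. It was at 547, 549, 469 and 540 TPM at 0h and at 741, 626, 659 and 647 TPM at 3h. All 3h libraries exceeded all 0h libraries. The mean went from 526 ± 38.6 to 668 ± 50.6 TPM (SD, n = 4), with a log2 fold change of 0.53 (SE 0.151, adjusted p = 0.0426 by edgeR). This call was lost in 8 of the 16 single-library omissions, namely those of each 0h and each 3h library, with adjusted p up to 0.161. Without 24h replicate 1, 3 or 4 the count at 3h was 5, 7 or 3. Of all genes tested, 2.65%, 3.28% and 2.96% were then called higher. The number called at 3h was 32 when the 0h and 3h libraries were fitted alone, 26 without the 4 libraries high in Myl7, 19 by limma voom with library weights and 10 by DESeq2. The share of all genes tested called higher in these fits was 8.82%, 4.59%, 6.72% and 3.69%. The comparisons with 0h share their 0h libraries.

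**Figure D2:**
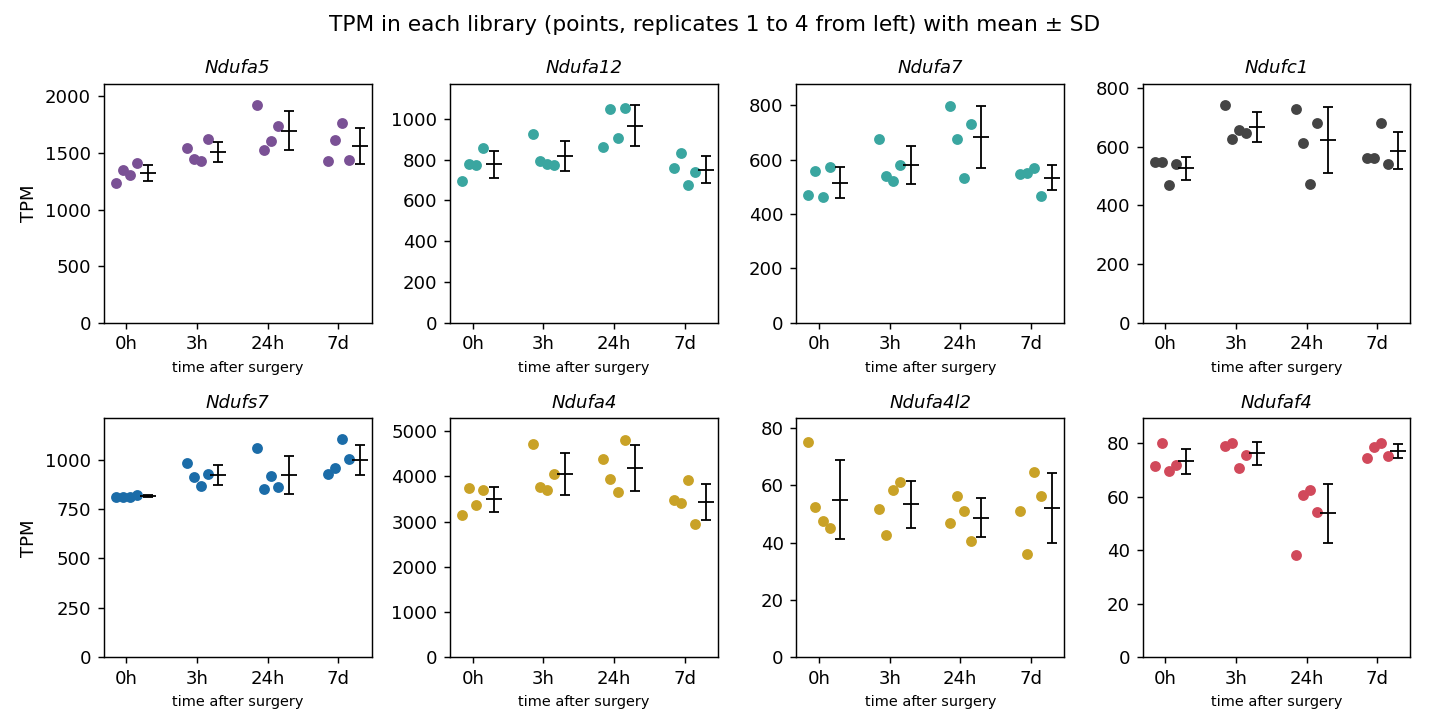
TPM (y axis) in each library (points, replicates 1 to 4 from left) at each time (x axis) for 8 of the genes, with mean ± SD beside them. Ndufa5, Ndufa12 and Ndufa7 have their highest mean at 24h, while Ndufaf4 is lowest there, between 38.3 and 62.4 TPM.

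At 7d no complex I gene passed the test against 0h: edgeR called 0 of the 47 in either direction, where 1.12% of all genes tested were. Of the 47, 6 had an unadjusted p under 0.05, as did 2701 of all 16866 genes tested. DESeq2 called 2 higher (Ndufs7 and Ndufv1) and limma voom with library weights called 1 (Ndufv1), while limma on log2(TPM + 1) called 0. The share of all genes tested called higher in these fits was 1.01%, 0.557% and 0.0119%. Among the 47, those with the smallest p by edgeR were both core subunits. Ndufv1, which binds NADH and the flavin, was at 947, 873, 908 and 888 TPM at 0h and at 1080, 1114, 1074 and 1084 TPM at 7d. All 7d libraries were above all 0h libraries and close to each other. Its log2 fold change was 0.36 (SE 0.108, adjusted p = 0.102). Ndufs7 was at 812, 812, 812 and 823 TPM at 0h and at 929, 955, 1104 and 1004 TPM at 7d. The 0h libraries were nearly alike and all lay below the 7d libraries. The change was 0.39 (SE 0.12, adjusted p = 0.118). The subunit median was 0.15, with 33 of 37 positive, and it was 0.08 without 7d replicate 3. Genes with a mean of 100 TPM or more had a median of 0.13.

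From 24h to 7d, 4 subunits fell. Here 35 of 37 subunits had a negative log2 fold change, with a median of −0.26, and 4 of the 47 genes were called lower, all subunits, where 4.6% of all genes tested were. The median was −0.16 without 24h replicate 4, −0.10 with quantile normalization and 0.01 without the 4 libraries high in Myl7, which leaves 1 library at 24h. Among genes with a mean of 100 TPM or more, 11.1% were called lower, with a median of −0.12. Ndufa12 was at 760, 832, 673 and 738 TPM at 7d, below each of its 24h libraries given above. Its change was −0.49 (SE 0.128, adjusted p = 0.0194). The adjusted p was 0.093 without 24h replicate 4, 0.0601 without 7d replicate 3 and 0.057 without 7d replicate 4.

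Ndufb4, a membrane arm subunit, was at 382, 464, 371 and 487 TPM at 24h and at 323, 361, 347 and 316 TPM at 7d. The groups did not overlap. It fell by 0.465 on the log2 scale (SE 0.131, adjusted p = 0.0301). Ndufa3, of the same arm, was at 2199, 2185, 1784 and 2895 TPM at 24h and at 1769, 1853, 1623 and 1313 TPM at 7d. Replicate 2 of 7d lay above the lowest 24h library. The change was −0.61 (SE 0.176, adjusted p = 0.0361). Ndufv3, an N module subunit, was at 499, 444, 351 and 478 TPM at 24h and at 352, 303, 407 and 334 TPM at 7d, which overlap through 24h replicate 3. Its change was −0.485 (SE 0.152, adjusted p = 0.0492). This call was lost in 13 of the 16 single-library omissions, with adjusted p up to 0.174, and in 10 of 16 other settings. The number called lower went to 0 without 24h replicate 4 or 7d replicate 4, to 1 without 24h replicate 1 or 7d replicate 1, to 2 without 7d replicate 3, and to 13 without 24h replicate 3. It was 0 when the groups were fitted alone and 9 by DESeq2. The number of all 16866 genes called in either direction moved as well, from 1424 with all libraries, 776 of them lower and 648 higher. That number was 843 and 861 without 24h or 7d replicate 4, 792 and 1095 without 24h or 7d replicate 1, and 965 without 7d replicate 3. It was 2457 without 24h replicate 3, 371 with the groups alone and 1816 by DESeq2. Those called higher among them were, in the same order, 397, 393, 354, 531, 452, 1212, 130 and 834. The rest were called lower.

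The 8 assembly factors had lower medians than the subunits at each time, and the difference between the lists was not tested. Their median log2 fold change against 0h was 0.24 at 3h, 0.18 at 24h and 0.13 at 7d. On log2(TPM + 1) the 24h median was −0.05, so its sign depends on the scaling. Ndufaf4, which binds the Q module together with Ndufaf3, was at 71.4, 80.1, 69.5 and 71.8 TPM at 0h and at 79.0, 80.0, 70.6 and 75.4 TPM at 3h. At 24h it was at 38.3, 60.5, 62.4 and 54.1 TPM, and at 7d at 74.5, 78.4, 80.0 and 75.1 TPM. All 24h libraries were below every library of the other times, with replicate 1 lowest.

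Ndufaf4 was lower at 24h than at 3h (−0.49, SE 0.114, adjusted p = 0.0103), the 1 complex I gene called in that comparison, where 3.7% of all genes tested were called lower. This call held in all 16 single-library omissions, with a largest adjusted p of 0.0432. It was lost with Myl7 as a covariate (−0.40, adjusted p = 0.0973) and without the 4 libraries high in Myl7 (−0.44, adjusted p = 0.134). From 24h to 7d Ndufaf4 rose (0.41, SE 0.113, adjusted p = 0.0272), the 1 complex I gene called higher there, where 3.84% of all genes tested were. Without 24h replicate 1 this rise was 0.31 (adjusted p = 0.0993), without 7d replicate 3 it was 0.38 (adjusted p = 0.0718), and without 7d replicate 2 it was 0.38 (adjusted p = 0.053). Against 0h the 24h value was −0.24 (SE 0.114, adjusted p = 0.143), the lowest of the 47 genes and not called.

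Ndufaf1, which works with Ecsit, Acad9 and Tmem126b on the membrane arm, averaged 96.0 ± 9.94 TPM at 0h, 93.1 ± 8.78 at 3h, 73.4 ± 11.48 at 24h and 96.1 ± 15.9 at 7d (SD, n = 4 each). Its 24h value was −0.17 against 0h (adjusted p = 0.361) and −0.31 against 3h (adjusted p = 0.128), so neither was called by edgeR. It and Ndufaf4 were the assembly factors with negative values at 24h. Ndufaf3 had the largest value of the 8 at 24h, 0.29 (SE 0.134, adjusted p = 0.13). It was at 47.6, 66.8, 57.1 and 64.6 TPM at 0h and at 70.9, 62.0, 62.9 and 53.0 TPM at 24h, with the groups overlapping. Over the later times it averaged 61.4 ± 1.02 TPM at 3h and 66.2 ± 7.03 at 7d.

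None of the remaining assembly factors was called at any time by edgeR on all libraries. Ndufaf8 was called higher at 3h by limma voom with library weights, Ndufaf5 and Ndufaf8 at 3h when the groups were fitted alone, and Ndufaf8 at 24h without 24h replicate 3. Ndufaf2, a relative of Ndufa12 that holds its place during assembly, averaged 27.1 ± 0.988 TPM at 0h, 27.0 ± 1.25 at 3h, 26.4 ± 2.95 at 24h and 23.6 ± 2.89 at 7d. Ndufaf5, which modifies Ndufs7, averaged 50.7 ± 4.72, 56.0 ± 3.29, 48.7 ± 6.15 and 53.0 ± 12.4 TPM in the same order. Ndufaf8, the partner of Ndufaf5, averaged 140 ± 9.0, 158 ± 6.70, 143 ± 12.4 and 154 ± 13.9 TPM. Both had their highest mean at 3h. Ndufaf6, needed for an early membrane step, averaged 62.5 ± 2.504, 65.1 ± 3.67, 57.8 ± 7.12 and 60.5 ± 5.76 TPM. Ndufaf7, a mitochondrial methyltransferase, averaged 29.8 ± 1.67, 29.1 ± 1.85, 29.3 ± 4.32 and 29.5 ± 5.30 TPM.

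Assembly factors with other names were read from a list of 12 genes, of which 11 were tested. At 24h 2 of the 11 were called higher and 0 lower against 0h, with a median of 0.05, where 9.53% of all genes tested were called higher. Dmac1, a factor for the distal membrane arm, went from 149 ± 6.93 to 168 ± 11.2 TPM (0.40, SE 0.123, adjusted p = 0.0272). Nubpl, which delivers iron-sulfur clusters to the complex, went from 10.6 ± 1.80 to 12.4 ± 1.31 TPM (0.46, SE 0.155, adjusted p = 0.0427). Both groups of libraries overlapped for each gene. Against 3h, 1 of the 11 was called lower at 24h, where 3.7% of all genes tested were: Tmem126b (−0.32, SE 0.099, adjusted p = 0.0485), a partner of Ndufaf1. At 3h and at 7d against 0h, none of the 11 was called.

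Over the whole time course, 15 of the 47 genes changed by the test of any difference between times, where 20.7% of all genes tested did. Ndufa12 (adjusted p = 0.0127), Ndufaf4 (0.0156), Ndufb4 (0.0193) and Ndufa5 (0.0209) had the smallest p. The others were Ndufv3, Ndufa3, Ndufa7, Ndufb11, Ndufa1, Ndufc1, Ndufa4, Ndufs7, Ndufb9, Ndufa2 and Ndufv2. Thus Ndufaf4 was the 1 assembly factor among them. The count was 3 without 0h replicate 1 or 3, 4 without 24h replicate 4, 6 without 24h replicate 1 and 7 without 3h replicate 4. It was 8 without 0h replicate 2, 3h replicate 1 or 3h replicate 2, 9 without 7d replicate 1, 26 without 24h replicate 2 and 29 without 24h replicate 3. The share of all genes called by this test in these fits is not reported here. At 24h against 0h, calls over all genes moved too, from 3062 with all libraries. They were 1796 without 0h replicate 1, and 1621, 3122 and 4352 without 24h replicates 1, 2 and 3.

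The subunits of a library tended to lie on the same side of their 0h means. Each library's median over the 37 subunits, as log2 CPM (counts scaled to library size) relative to the 0h mean, was −0.11, 0.06, −0.08 and 0.16 at 0h and 0.55, 0.31, 0.19 and 0.35 at 3h. It was 0.58, 0.20, 0.14 and 0.66 at 24h and 0.00, 0.23, 0.36 and 0.09 at 7d. Replicates 1 and 4 of 24h were thus high, and replicates 2 and 3 were near the highest 0h library. Of the 37 subunits, 36, 37, 37 and 37 stood above their 0h mean in the 3h libraries and 37, 35, 32 and 37 in those of 24h. Within 0h the same number ran from 1 in replicate 1 to 35 in replicate 4. Erythroid markers (4 genes, none of them called in any comparison) also varied between libraries, with medians on the same scale of −0.84, 1.01, −1.9 and 1.75 at 0h and 1.37, 0.39, −0.20 and 1.20 at 3h. They were at 1.93, 0.17, 1.13 and 1.53 at 24h and −1.42, 1.11, −0.57 and −0.05 at 7d. Their order resembled that of the subunits at 0h and 3h, but not throughout, as 7d replicate 3 was the highest of its time for subunits and negative here. The summed level of these 4 ran from 98.7 to 1190 TPM at 0h, 304 to 840 at 3h, 380 to 1040 at 24h and 138 to 689 at 7d. The part of blood content in the subunit values was not tested.

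Other respiratory complexes showed the same direction at 24h. Called higher were 2 of 4 complex II genes (median 0.31), 4 of 9 of complex III (0.38), 12 of 18 of complex IV (0.51) and 11 of 18 of complex V (0.42), and 0 genes of these 4 complexes were called lower. Complex I subunits therefore stood within the range of their neighbours.

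**Figure D3:**
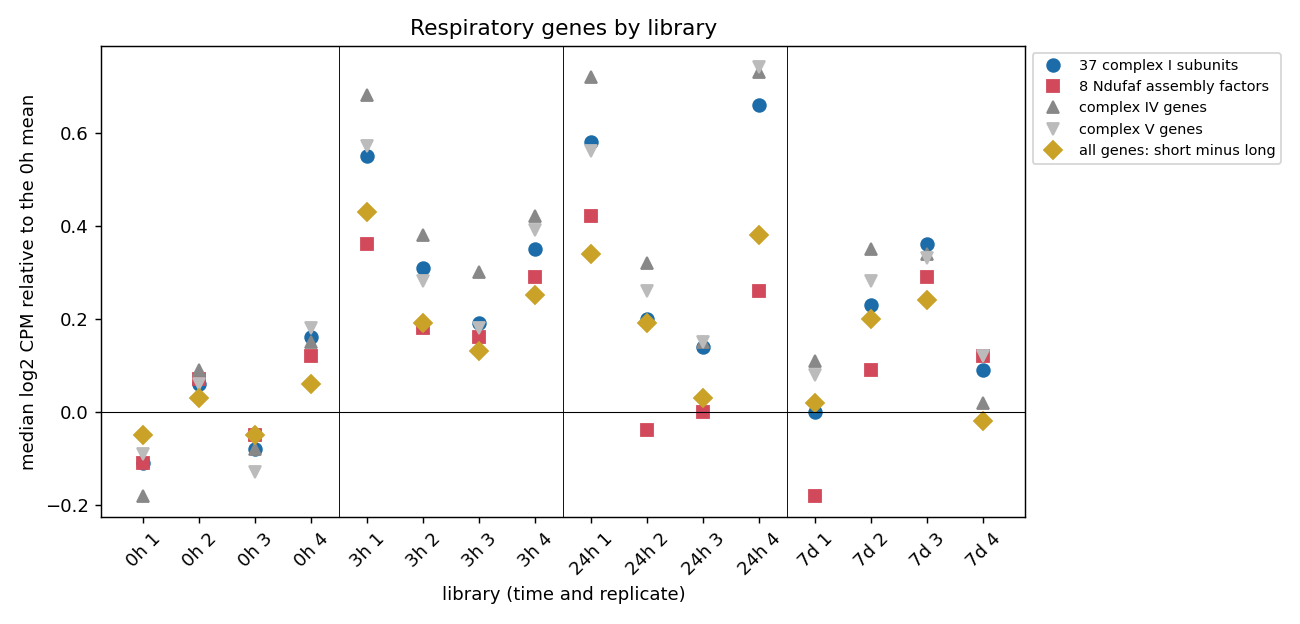
Median log2 CPM relative to the 0h mean (y axis) in each of the 16 libraries (x axis) for complex I subunits, assembly factors, complex IV and V genes, and, as diamonds, the median of all short genes minus that of all long genes. The subunits reach 0.58 and 0.66 in 24h replicates 1 and 4, where the short genes stand 0.34 and 0.38 above the long ones.

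Gene length moved with these values. Subunits had a median length of 1569 bases, against 3545 for all genes tested. At 24h against 0h the median log2 fold change of all genes was 0.19 under 1000 bases and 0.19 from there to 2000, 0.07 from 2000 to 4000, −0.07 from 4000 to 8000 and −0.20 from 8000 on. Complex I genes of the same length classes had medians of 0.38, 0.39, 0.33, 0.38 (4 genes) and 0.19 (Ndufs1 alone). They stood above the median of all genes of like length in every class. The classes are not matched for level, and genes with a mean of 100 TPM or more had a median of 0.26 whatever their length. Per library, all genes under 2000 bases minus all of 4000 or more gave −0.05, 0.03, −0.05 and 0.06 at 0h, 0.43, 0.19, 0.13 and 0.25 at 3h, 0.34, 0.19, 0.03 and 0.38 at 24h and 0.02, 0.20, 0.24 and −0.02 at 7d. The libraries with high subunit medians were those where short genes were high. When the trend with length was removed, the subunit median at 24h was 0.27 and 14 genes were called higher. No measure of RNA integrity was analysed here, and its part in these values was not tested.

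**Figure D4:**
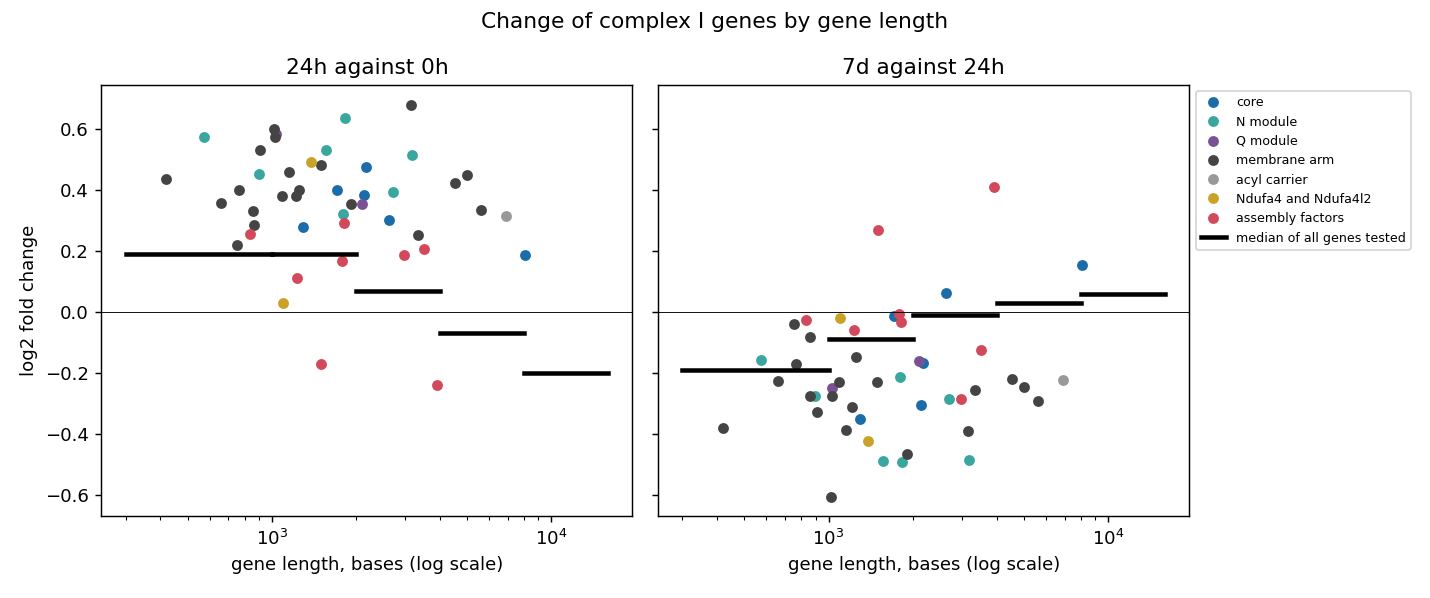
Log2 fold change (y axis) of each complex I gene reported by name against its length in bases (x axis, log scale) at 24h against 0h and at 7d against 24h, with black lines for the median of all genes tested in each length class (the outer classes, under 1000 and 8000 or more, are drawn to the limits of the plot). At 24h most members lie above the line of their class, with Ndufaf4 and Ndufaf1 below 0.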

How the data were processed

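PolyA RNA of the left ventricle was sequenced from strand-specific NEBNext libraries, per the labels' protocols. The tools cutadapt and STAR and the build mm10 are named in the submitters' processing notes, while the counting tool, its strand setting and versions are not given there. The authors deposited a single table with 57143 genes, holding counts, TPM and FPKM of each library. The deposited counts are whole numbers and not normalized, and recomputing TPM and FPKM from counts and gene lengths gave the deposited values to a relative 5.25e-15. The table held 0 mitochondrial rows and 525 rows without a symbol. Columns were matched to libraries by time and number, as their prefix differs from the titles.

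Tests covered the 16866 genes whose TPM averaged at least 0.5 (holding at least 99.84% of each library's counts). All 16 libraries entered 1 edgeR fit (4.0.16, TMM, robust quasi-likelihood, no replicate block; R 4.3.3), with Benjamini-Hochberg adjustment over all genes and a threshold of 0.05. An SE is the log2 fold change divided by the square root of F. TPM are mean ± SD over 4 libraries. The fit was tested on simulated counts. Alternatives used limma 3.58.1 and DESeq2 1.42.0, other scalings and filters, a replicate block, a length correction, Myl7 as a covariate and leaving out each library. Older edgeR settings and leaving out the libraries over 50 TPM of Myl7 were added after the data were seen. The members, gene lists and alternatives were chosen with earlier results of these data known. Values in every library are given for the called genes of smallest p (up to 4 per direction and comparison, and 2 where none was called), the extremes at 24h, Ndufa4 and Ndufa4l2. The values of 1 gene are not reported here by name, though counts and medians include it. Samples with the same number did not deviate together. Coordinates are GENCODE M21 and RefSeq on GRCm38.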

Additional observations from a re-analysis of the deposited data

Results flagged for a closer look

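Each of the 47 genes was looked at in each of the 4 times, 188 groups of 4 libraries, for a highest or lowest library whose gap to its neighbour took up more of the group's range than Dixon's critical value for 4 samples allows. Chance alone flags about 1 in 20 such groups, and 11 were found here. Of these, 4 were 0h replicate 3 as the lowest library: Ndufa8 at 1249 TPM, Ndufab1 at 243.7 TPM, Ndufaf5 at 43.6 TPM and Ndufc1 at 468.7 TPM. Another 3 were 7d replicate 3 as the highest: Ndufb11 at 2436 TPM, Ndufb6 at 1407 TPM and Ndufc1 at 681.1 TPM. At 0h replicate 1 was lowest for Ndufaf6 (58.8 TPM) and Ndufb3 (780.9 TPM), and replicate 4 was highest for Ndufs7 (823.0 TPM), in a group that otherwise lay within 1 TPM. At 3h replicate 1 was highest for Ndufa12 (924.5 TPM).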

How the results depend on the processing

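The count of genes higher at 24h against 0h (21) was 9 without TMM, 4 by limma on log2(TPM + 1) or log2(TPM + 0.1), 5 with quantile normalization, 8 when the groups were fitted alone, and 0 with Myl7 as a covariate or without the 4 libraries high in Myl7; single omissions gave 3 to 34. The share of all genes tested called higher was 5.94% without TMM and 3.81% and 3.69% on the TPM scales. It was 8.94% with quantile normalization, 6.68% with the groups alone and 5.16% to 13.3% in single omissions. The count of complex I genes lower at 24h against 0h (0) was 1 without TMM and 2 on both TPM scales. At 3h (1 higher), 0 were called without TMM, on both TPM scales or with quantile normalization. The share of all genes tested called higher there was 1.39%, 0.872%, 0.765% and 2.38%. The count was also 0 with the length trend removed (1.8% of all genes) or with the Myl7 covariate (0.486%). It was 2 without a filter, 10 by DESeq2, 19 by limma voom with weights, 26 without the Myl7-high libraries and 32 with the groups fitted alone, and single omissions gave 0 to 7. At 7d against 0h (0 higher), DESeq2 gave 2, voom with weights 1 and leaving out the Myl7-high libraries 2. For 24h against 3h (1 lower) the covariate and leaving out those libraries gave 0. For 7d against 24h the count higher (1) was 0 by voom with weights, with the groups alone, with the covariate and without those libraries, and 0 to 1 in single omissions. The count lower (4) was 9 by DESeq2, 1 on both TPM scales and with quantile normalization, 0 with the groups alone, with the covariate and without those libraries, and 0 to 13 in single omissions. Of all genes, 1424 (648 higher) were called at 7d against 24h, 1816 (834) by DESeq2 and 1406 (732) with quantile normalization. The TPM scales gave 1116 (747) and 1122 (760), and voom with weights 1000 (470). The groups alone gave 371 (130) and the covariate 24 (6). At 24h against 3h the covariate gave 552 (277) against 1313 (689). For any change (15) the counts were 7 without TMM, 30 by DESeq2, 3 on both TPM scales and 2 with quantile normalization. They were 25 by voom with weights, 8 with the length trend removed and 0 with the covariate, and 3 to 29 in single omissions. Shares of all genes for any change in these fits are not reported here. Among called genes, the 1 change of sign was Ndufc1 at 24h against 0h, −0.06 without the Myl7-high libraries, which leaves a single 24h library assumed to vary like the rest. Medians changed sign too: without those libraries the subunit median went from −0.26 to 0.01 at 7d against 24h and from 0.06 to −0.29 at 24h against 3h, where it was −0.02 with quantile normalization or without 24h replicate 1 and −0.04 without 24h replicate 4. The assembly factor median at 24h against 0h was −0.05 on both TPM scales (0.18 by edgeR with TMM), and that at 7d against 24h (−0.03) ran up to 0.10. The causes of these differences between fits were not tested.

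Samples with the same number did not pair: the correlation of their deviations ran from −0.122 to 0.055 over 24 pairs, none over 0.1. A replicate block gave 19 higher at 24h, 0 at 3h, 2 lower at 7d against 24h and 7 for any change. With 4 libraries per time, the smallest change called at 24h against 0h was 0.36 (Ndufa9).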
